A study of Rattus norvegicus with 6 samples.

Results

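The GDNF family consists of 4 secreted ligands, glial cell line-derived neurotrophic factor (Gdnf), neurturin (Nrtn), artemin (Artn) and persephin (Pspn), and of the receptors that read them. Each ligand binds a membrane-anchored co-receptor of the GFRA group, and the pair then engages RET, a receptor tyrosine kinase that carries the signal into the cell. Gdnf pairs preferentially with Gfra1, neurturin with Gfra2, artemin with Gfra3 and persephin with Gfra4. The ligands support motor, sensory, sympathetic and enteric neurons, and Gdnf made by kidney mesenchyme directs branching of the RET-bearing ureteric bud. Mesenchymal stem cells (MSC) are plastic-adherent stromal cells that are known to secrete neurotrophic proteins in culture.

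The 8 listed genes were Gdnf, Nrtn, Artn, Pspn, Gfra1, Gfra2, Gfra3 and Ret, taken by gene name. Of these, 7 matched a row among the 30498 genes of the count table, and Gfra1 was not analysed here under its name. The series compared cultured rat MSC of 2 origins, 3 libraries of rcMSC labelled as cranial bone marrow and 3 of rbMSC labelled as bone marrow of the femur and tibia. All 6 were labelled wild type, with no treatment, strain, age or sex given in the labels, and RNA came from the whole culture. The labels do not tie the libraries to separate animals or cultures, so p-values here speak of library-to-library spread alone, and that spread may be technical.

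Total counts ranged from 21340290 to 26928079, so that 1 count was worth 0.0371 to 0.0469 CPM (counts scaled to library size). The library rcMSC replicate 3 stood apart from the other 2 of its group. Its counts differed from theirs by a chi-square per degree of freedom of 42.0 and 42.8, against 2.69 to 3.16 for every other pair of 1 group. The stromal markers Thy1, Cd44, Pdgfrb, Col1a1 and Col1a2 had at least 10439 counts in every library. The lowest counts of the other stromal markers were 35738 for Itgb1, 8052 for Lum, 3129 for Pdgfra, 804 for Eng and 343 for Nt5e. Of the 10 stromal markers 4 were higher and 6 lower in rcMSC, with a summed level of 60300 to 74100 CPM there and 42500 to 42700 in rbMSC. Of the 8 macrophage markers, 6 were lower in rcMSC, and their summed level was 421 to 445 CPM there against 801 to 802 in rbMSC. Of the defining glial and neuronal genes, Cdh19, Foxd3 and Elavl4 had 0 counts, and Sox10 and Elavl3 had at most 1 count in any library. Of the 8 glial markers 1 (S100b) was lower, with a summed level of 27.2 to 30.6 CPM in rcMSC and 45.3 to 48.9 in rbMSC. Of the 7 neuronal markers 2 (Stmn2 and Syt1) were higher and 1 (Tubb3) lower, with 140 to 173 CPM against 70.7 to 72.6, most of it Stmn2 (144 against 48.6 CPM). The Syt1 call (edgeR adjusted p = 0.0381) was lost without any library other than rcMSC replicate 3 (0.0582 to 0.165), with a replicate block (0.0646) and in DESeq2 (adjusted p = 0.055). Of the 5 endothelial markers 1 (Tek) was higher, with 9.32 to 11.6 CPM against 5.71 to 8.04. The part of any of these cells in the values below was not tested, and in bulk RNA fewer cells of a type and less RNA per cell cannot be told apart.

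Artemin was the member with the largest difference, 17.9 times higher in rcMSC. Gdnf was 1.84 times higher and the co-receptor Gfra2 2.95 times higher, while Nrtn, Gfra3 and Ret were close to the counting limit in both groups. In edgeR the 3 genes Artn, Gdnf and Gfra2 passed an adjusted p of 0.05 out of 4 members tested. None of the 4 members tested was lower (0 at an unadjusted p under 0.05, and 0 by DESeq2 and by limma voom). Over all 14836 genes tested, 22.6% were called higher, 23.2% lower and 45.8% in either direction. The low-count filter asks for about 0.389 CPM in 3 libraries, which Artn and Gfra2 met only with the help of rcMSC libraries, so the share called among the members that passed supports nothing by itself. All 3 rcMSC libraries lay above all 3 rbMSC libraries for Artn, Gdnf, Gfra2 and, narrowly, the row named Pspn, as they did for 28.3% of all genes tested (57.1% did not overlap in either direction).

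**Figure D1:**
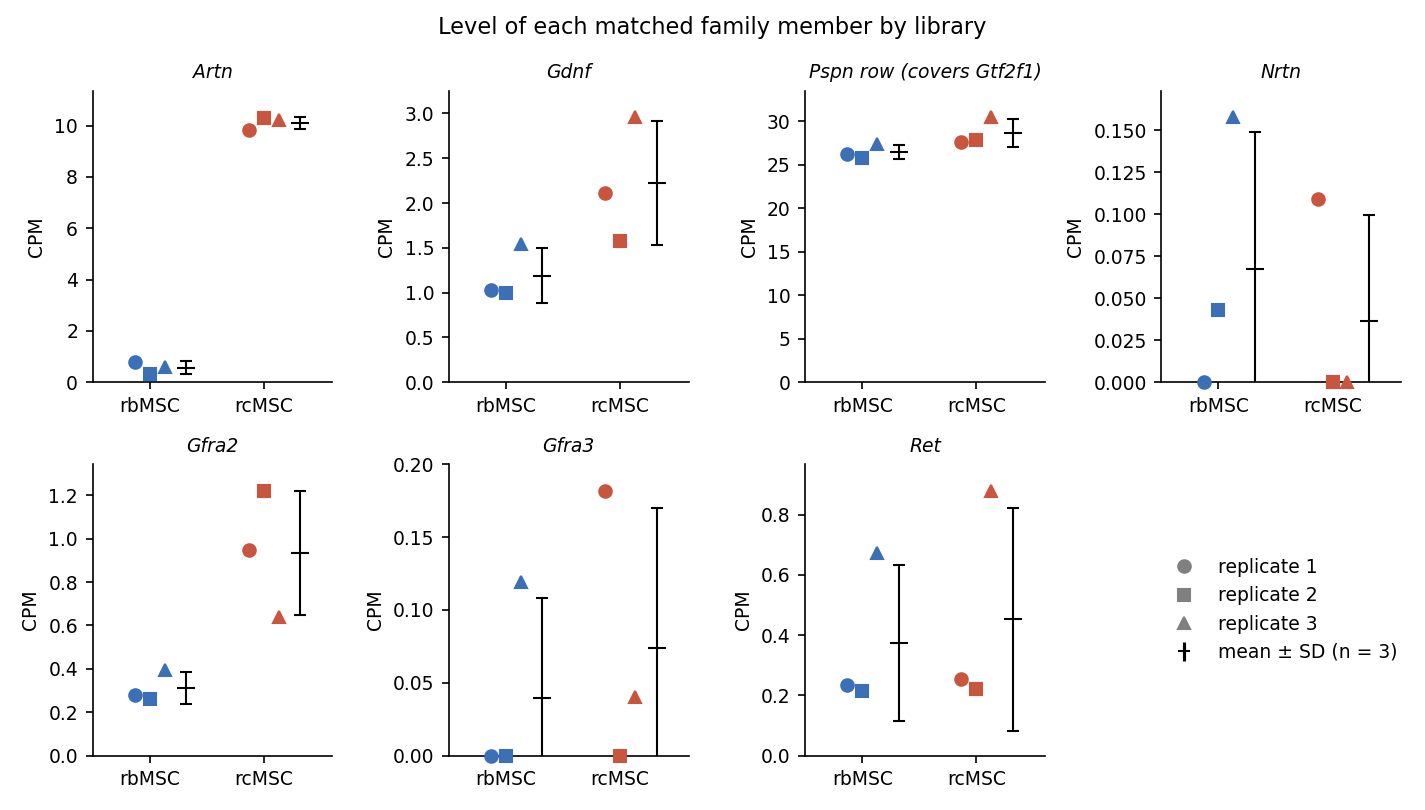
TMM-scaled CPM (linear axes from 0) of the 7 matched members in each library, with rbMSC in blue, rcMSC in red, a symbol per replicate and the mean ± SD in black (bars are clipped at 0). Artn lies at 9.83 to 10.3 CPM in rcMSC and 0.303 to 0.795 in rbMSC, while Nrtn, Gfra3 and Ret overlap between groups.

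Artemin, which supports sensory and sympathetic neurons, is encoded by Artn (ENSRNOG00000019842) on the minus strand of chromosome 5, from 131464756 to 131468025 in mRatBN7.2, in 5 exons. The rbMSC libraries held 17, 7 and 15 raw counts, in the order of replicates 1 to 3 used throughout, and the rcMSC libraries 270, 279 and 255. The corresponding levels were 0.795, 0.303 and 0.594 CPM against 9.83, 10.3 and 10.2 CPM. The 3 rcMSC libraries were almost level with each other and all far above rbMSC, and rcMSC replicate 3 did not stand apart for this gene. The log2 fold change was 4.16 (SE 0.23, edgeR adjusted p = 3.33e-07), with 10.1 ± 0.235 CPM against 0.564 ± 0.248 (SD, n = 3 each). Only 59 of all genes tested, Artn included, had a log2 fold change as high, and 0.91% changed as much in either direction. The ratio of summed counts had an exact 95% interval of 13 to 25.4 from counting error alone.

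Gdnf (ENSRNOG00000012819) lies on the plus strand of chromosome 2, from 56895010 to 56917209, in 3 exons that sum to 738 bases. Its counts were 22, 23 and 39 in rbMSC and 58, 43 and 74 in rcMSC, or 1.03, 0.995 and 1.54 CPM against 2.11, 1.58 and 2.96 CPM. The groups did not overlap, but rbMSC replicate 3 at 1.54 CPM nearly reached rcMSC replicate 2 at 1.58 CPM. The log2 fold change was 0.88 (SE 0.30, edgeR adjusted p = 0.0341), with 2.22 ± 0.694 CPM against 1.19 ± 0.308 (SD, n = 3 each). A change of that size or more was found in 17.8% of all genes tested. The call was lost when any of 4 libraries was left out (edgeR adjusted p = 0.0652 to 0.121), rcMSC replicate 3 among them.

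Both ligand genes have an entry in the RefSeq promoter table of build GRCr8, and the 150 bases before the start listed there are shown because these were the 2 ligands that rose. The Artn window is on the minus strand at chr5:136753458-136753607 and the Gdnf window on the plus strand at chr2:58621177-58621326, both written 5′ to 3′ with motif matches in capitals.
Artn: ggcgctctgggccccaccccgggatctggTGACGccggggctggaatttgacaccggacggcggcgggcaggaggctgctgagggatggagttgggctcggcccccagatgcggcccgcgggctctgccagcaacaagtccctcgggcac
Gdnf: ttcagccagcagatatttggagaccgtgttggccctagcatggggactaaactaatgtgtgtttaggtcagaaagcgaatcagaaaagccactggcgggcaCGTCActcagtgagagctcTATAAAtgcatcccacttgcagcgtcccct
Both strands were searched for TATAAA, the box bound by the general transcription machinery, and for GGGCGG, the box bound by Sp factors. The other motifs searched were CCAAT, bound by nuclear factor Y, then TGACG, the core of cyclic AMP response elements, and the homeobox core written as TAATTA. The core TGACG was present once in each window, on the strand shown for Artn and on the other strand for Gdnf, where it reads CGTCA. It was present in 13.4% of the 33469 windows of this length in the table. TATAAA was present in the Gdnf window only of these 2, and in 8.0% of all windows. The remaining motifs had no match in either window. The Artn window has 72.7% G and C and the Gdnf window 50.7%, against a median of 52.7% for all windows. These matches describe the letters and were not tested for any bearing on the counts.

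The make-up of the ligand transcripts differed between the groups. Scaled by exon length, Artn exceeded Gdnf in the 3 rcMSC libraries and was below it in the 3 rbMSC libraries. The log2 ratio of Artn to Gdnf was 1.36, 1.83 and 0.927 in rcMSC and -1.21, -2.50 and -2.20 in rbMSC, a difference of 3.34. The two-sided exact permutation p was 0.1, the smallest that 3 against 3 libraries allow.

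Neurturin (Nrtn, ENSRNOG00000048651, chromosome 9, 1581975 to 1583102, minus strand), which acts on parasympathetic and enteric neurons, was barely counted. Its counts were 0, 1 and 4 in rbMSC and 3, 0 and 0 in rcMSC. The ratio of rcMSC to rbMSC was 0.522, with an exact 95% interval of 0.0811 to 2.68 from counting error alone. That interval is not a limit of detection, and at this depth no direction of change can be read. The count model covers 671 bases of exon, and reads outside it were not counted.

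The row named Pspn (ENSRNOG00000071190, chromosome 9, 1840896 to 1854327, minus strand) does not measure persephin by itself. Its single transcript model has 15 exon blocks and 5753 bases of exon, and 1932 of these bases are also exons of Gtf2f1, a subunit of the general transcription factor TFIIF. They make up 92.8% of the exon bases of Gtf2f1. Counts of the Pspn row were 560, 597 and 692 in rbMSC and 758, 759 and 764 in rcMSC. Counts of Gtf2f1 were 545, 580 and 672 in rbMSC and 744, 752 and 740 in rcMSC. The count of Gtf2f1 thus equalled 96.9% to 99.1% of that of the Pspn row in every library.

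The Pspn row had 15, 17 and 20 counts more than Gtf2f1 in rbMSC and 14, 7 and 24 more in rcMSC. If reads in shared exons were entered for each of the 2 rows, this excess is a lower bound for the 3821 bases outside Gtf2f1. Counts of the Gtf2f1 bases outside the Pspn row are taken off as well. Over those 3821 bases the excess was 0.194 ± 0.012 CPM per kilobase in rbMSC, compared with 0.151 ± 0.0931 for rcMSC (SD, n = 3 each). A further 149 bases overlap Alkbh7 on the other strand. The fitted log2 fold change of the Pspn row was 0.12 (SE 0.08, edgeR adjusted p = 0.238) with a 95% interval of -0.03 to 0.26, beside 0.13 (SE 0.07, edgeR adjusted p = 0.186) for Gtf2f1. No level of persephin is therefore drawn from this row.

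**Figure D2:**
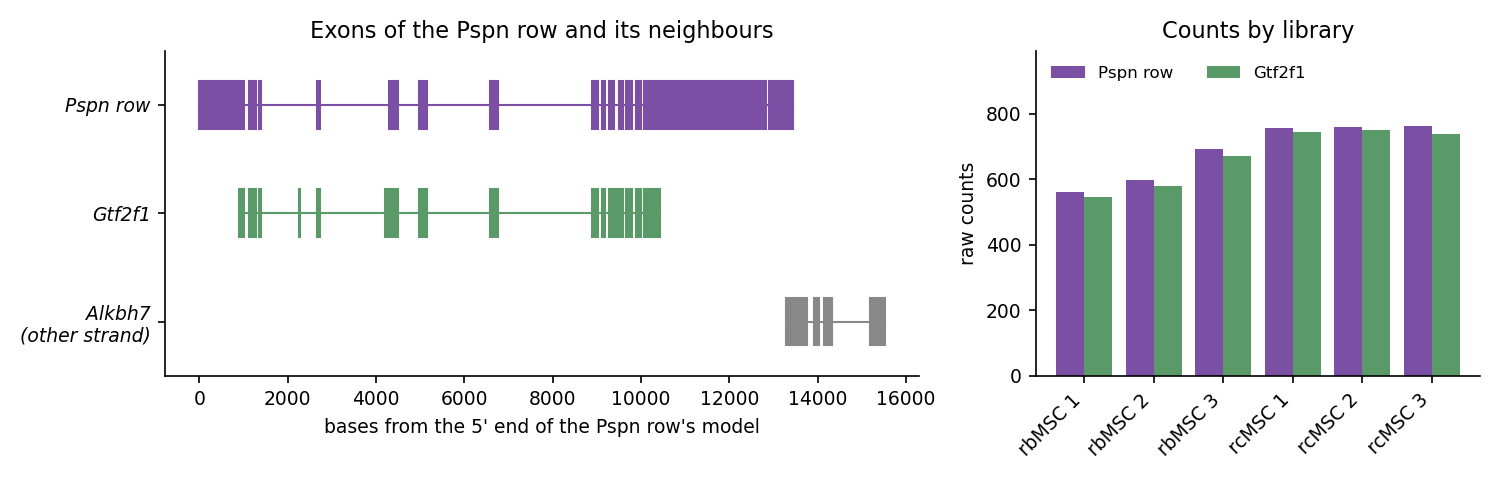
Left, exons (boxes) of the Pspn row, of Gtf2f1 and of Alkbh7 by distance in bases from the 5′ end of the Pspn model, transcription running left to right for the first 2. Right, raw counts of the Pspn row and of Gtf2f1 in each library (bars from 0), which stay within 24 counts of each other in every library.

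Of the co-receptors, Gfra2 (ENSRNOG00000014010, chromosome 15, 45941828 to 46033714, plus strand), the preferred partner of neurturin, had counts of 6, 6 and 10 in rbMSC and 26, 33 and 16 in rcMSC. These were 0.281, 0.260 and 0.396 CPM against 0.947, 1.22 and 0.640 CPM. All rcMSC libraries lay above rbMSC, with rcMSC replicate 3 the lowest of them. The log2 fold change was 1.56 (SE 0.39, edgeR adjusted p = 0.00841), and it passed without each library in turn (1.33 to 1.78, edgeR adjusted p = 0.000643 to 0.0412). It rests on 97 counts in all 6 libraries, and counting error alone gives the ratio an interval of 1.82 to 5.01.

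Gfra3 (ENSRNOG00000020309, chromosome 18, 26297829 to 26326105, minus strand), the preferred partner of artemin, was near the limit. The rbMSC libraries held 0, 0 and 3 counts and the rcMSC libraries 5, 0 and 1. The ratio of summed counts was 1.74, with an exact 95% interval of 0.372 to 10.8. The preferred co-receptor of the ligand that differed most was thus at most 5 counts in any library.

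RefSeq places Gfra1 between Atrnl1 and Ccdc172. In that interval of chromosome 1 the count table has a single row, under the clone-based name AABR07007068.1 (ENSRNOG00000017438, 257321742 to 257551473, minus strand), which no source here pairs with Gfra1. It is therefore not counted as a member. Its counts were 31, 37 and 35 in rbMSC and 23, 40 and 95 in rcMSC. The log2 fold change was 0.45 (SE 0.49, edgeR adjusted p = 0.483), and it turned to -0.36 (edgeR adjusted p = 0.345) without rcMSC replicate 3, the library with 95 counts.

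Ret (ENSRNOG00000014751, chromosome 4, 151326431 to 151368176, minus strand, 21 exons), the signalling receptor, had 5, 5 and 17 counts in rbMSC and 7, 6 and 22 in rcMSC. The groups overlapped, and replicate 3 was the highest in each of them. Its level was 0.375 ± 0.259 CPM in rbMSC and 0.452 ± 0.371 in rcMSC (SD, n = 3 each), under the filter. Fitted without the filter, the log2 fold change was 0.23 (SE 0.62, edgeR adjusted p = 0.812), and the ratio of summed counts was 1.13 with an exact 95% interval of 0.664 to 1.94. That interval covers counting error alone, leaves out the spread between libraries and is not a limit of detection. At this depth no direction of change can be read for Ret.

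**Figure D3:**
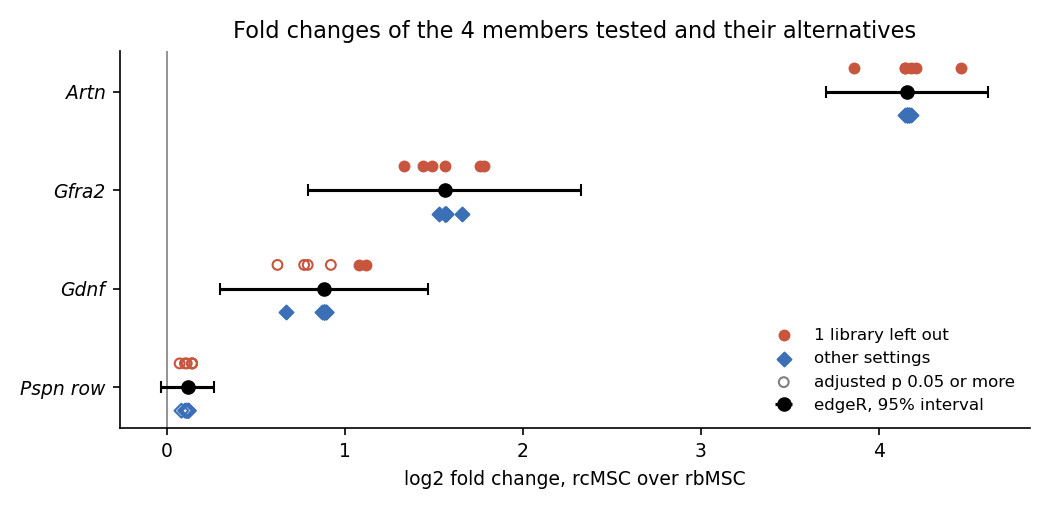
Log2 fold change (rcMSC over rbMSC) of the 4 members tested, with its 95% interval in black, each value with 1 library left out in red and each other setting in blue; open symbols did not pass. Artn stays between 3.86 and 4.46 and Gfra2 between 1.33 and 1.78, while Gdnf loses its call in 4 of the 6 sets with a library left out.

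Levels were set side by side only as CPM per kilobase of exon. In rcMSC the order was Artn (7.59 ± 0.177), the Pspn row (4.99 ± 0.280), Gdnf (3.01 ± 0.940) and Gfra2 (0.261 ± 0.0804), followed by Ret (0.0978 ± 0.0803), Nrtn (0.0543 ± 0.0940) and Gfra3 (0.0346 ± 0.0447), each as SD with n = 3. The first 3 were separated from their next neighbour in every library, and from Gfra2 down each overlapped the next. In rbMSC the order was the Pspn row (4.60 ± 0.144), Gdnf (1.61 ± 0.417) and Artn (0.424 ± 0.186), then Nrtn (0.1 ± 0.122), Gfra2 (0.0872 ± 0.0205), Ret (0.0811 ± 0.0561) and Gfra3 (0.0185 ± 0.0320). There, Artn and every member below it overlapped the next.

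Summed over Artn, Gdnf and Nrtn, the ligand level was 10.4, 9.86 and 11.7 CPM per kilobase in rcMSC and 1.99, 1.64 and 2.78 in rbMSC, or 4.99-fold (two-sided exact permutation p = 0.1). With the Pspn row included the sum was 15.6 ± 1.19 against 6.74 ± 0.724 (SD, n = 3 each), or 2.32-fold (two-sided exact permutation p = 0.1). That sum is not a ligand level, since the Pspn row, with counts nearly equal to those of Gtf2f1, gave 4.99 and 4.60 of it. The sum of Gfra2 and Gfra3 was 0.295 ± 0.085 CPM per kilobase in rcMSC, compared with 0.106 ± 0.0524 for rbMSC (SD, n = 3 each), with the same exact permutation p of 0.1. By length-scaled level, Artn, Gdnf and Nrtn together thus exceeded Gfra2 and Gfra3 together in both groups. The co-receptor sum leaves out Gfra4, which was at 1.87 ± 0.762 in rcMSC and 0.413 ± 0.226 in rbMSC. It also leaves out the row AABR07007068.1, at 0.949 ± 0.726 and 0.689 ± 0.0513. The mean of Ret (0.0978 and 0.0811) was below the sum of Gfra2 and Gfra3, but Ret overlapped each of these 2 genes in both groups.

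**Figure D4:**
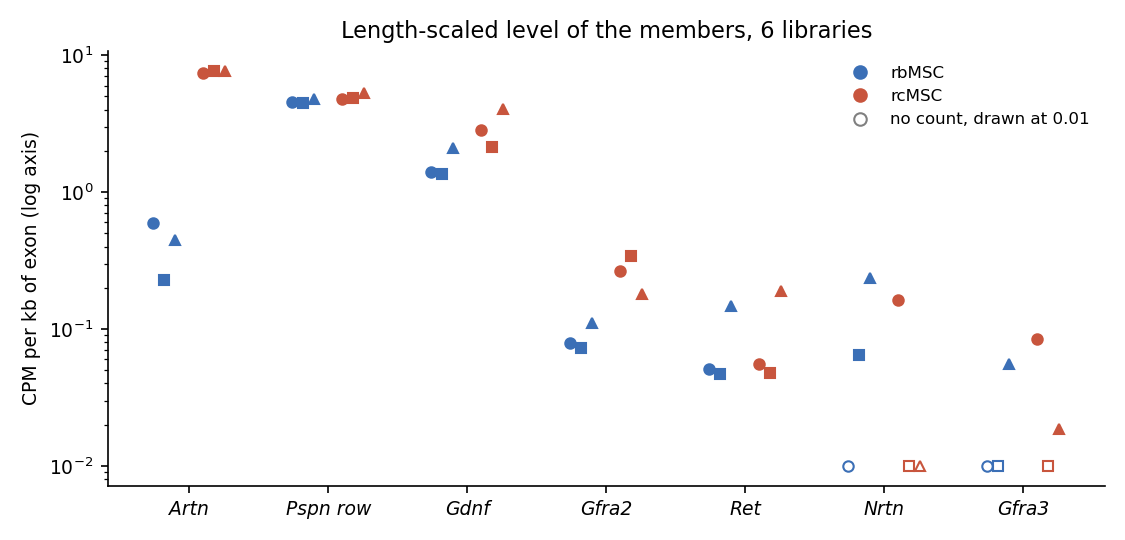
Length-scaled level (CPM per kilobase of exon, log axis) of the 7 matched members in the 6 libraries, rbMSC in blue and rcMSC in red, with a symbol per replicate and open symbols at 0.01 where a library had no count. Artn lies below Gdnf in rbMSC and above it in rcMSC, and the matched receptors lie below Gdnf in both. The Pspn row does not measure persephin by itself.

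The first list around the family held its more distant members, among them the ligand Gdf15 and its receptor Gfral, and receptors that bind these ligands besides RET. Of 7 genes in the table, 6 were tested, with 3 higher and 2 lower (83.3% called, beside 45.8% of all genes), a median log2 fold change of 0.30 beside 0.015 for all genes. Gfra4, the co-receptor of persephin, had 5, 9 and 18 counts in rbMSC and 75, 60 and 28 in rcMSC (2.15 on the log2 scale, SE 0.44, edgeR adjusted p = 0.00307). The sorting receptor Sorl1, which binds GDNF, rose from 2.43 ± 0.208 to 14.2 ± 1.64 CPM (log2 fold change 2.55). The neural cell adhesion molecule Ncam1, a receptor for GDNF that works without RET, was high in each group and rose from 781 ± 5.44 to 1140 ± 28.8 CPM (0.55, edgeR adjusted p = 1.77e-05). The heparan sulphate proteoglycan Sdc3, which binds GDNF, neurturin and artemin, fell from 134 ± 3.35 to 29.0 ± 9.35 CPM (-2.21, edgeR adjusted p = 0.00016). Sort1, another sorting receptor, fell by 0.28 on the log2 scale.

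Of 28 genes tested that relay signals from RET, 2 were higher and 9 lower, with a median log2 fold change of -0.14. This is 39.3% of the list called, below the 45.8% of all genes in the main fit. Without rcMSC replicate 3 the counts were 5 and 14, beside 4512 and 4558 of all 15096 genes tested. The share called was then higher in the list than over all genes. The adaptor proteins Irs1 and Grb10 rose by 0.98 and 0.42 on the log2 scale. The ubiquitin ligases Cbl and Cblb, which take activated receptors out of service, fell by 0.74 and 0.69, and Rap1gap fell by 0.91. Dok6, an adaptor of RET that was singled out after its value was seen and lies under the level set for named genes, fell by 3.30 on the log2 scale (edgeR adjusted p = 8.11e-05). The shared kinase gene Akt1, likewise singled out afterwards, did not pass (-0.15, edgeR adjusted p = 0.0533), though it did in 5 of the alternatives, namely RLE or upper quartile scaling, limma voom and leaving out rcMSC replicate 1 or 3 (adjusted p = 0.0175 to 0.05).

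Of 11 genes known as targets of RET signalling in the ureteric bud, many of which other receptor tyrosine kinases also induce, 8 were lower and 2 higher, with a median of -0.70, where 23.2% of all genes were lower and 22.6% higher. The count of lower genes was 7 if rbMSC replicate 2, rbMSC replicate 3 or rcMSC replicate 2 was left out, since Etv5 then did not pass. Spry4 and Dusp6, feedback inhibitors of the MAP kinase pathway, fell by 2.39 and 1.5 on the log2 scale. Spry4 went from 75.0 ± 4.03 to 14.3 ± 0.131 CPM (edgeR adjusted p = 3.92e-09). The 2 that rose were the membrane protease Mmp14 (0.25, edgeR adjusted p = 0.00368) and Wnt11 (2.04, edgeR adjusted p = 0.0398), the latter below the level set for named genes and with overlapping groups. The Wnt11 call was lost if rbMSC replicate 2, rbMSC replicate 3 or rcMSC replicate 2 was left out (edgeR adjusted p = 0.12, 0.0991 and 0.0625) and with no low-count filter (0.0563), which leaves 1 gene higher. Its log2 fold change was 1.3 without rcMSC replicate 3 and 1.44 with limma voom.

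Of 15 genes tested that act on Gdnf in kidney mesenchyme, 3 were higher and 8 lower (73.3% called, beside 45.8% of all genes), with a median of -0.33. Among those that rose were Six2 and Eya1, transcriptional regulators that sustain Gdnf there, with log2 fold changes of 5.18 and 1.37. Hox genes of the eleventh group, which work with Eya1 in the kidney, were among those that fell. Hoxa11 had 71, 63 and 96 counts in rbMSC and 0, 1 and 3 in rcMSC, a ratio of summed counts of 0.0151 (exact 95% interval 0.00409 to 0.0393), with 3 of the 4 rcMSC counts in replicate 3. The Hoxc11 counts were 63, 75 and 42 in rbMSC and 0, 0 and 2 in rcMSC, so that both rcMSC counts came from replicate 3. They summed to 180 and 2, and their ratio was 0.00967, with an exact 95% interval of 0.00116 to 0.0355. Foxc2, of the forkhead factors, fell by 3.06. Their bearing on Gdnf in these cultures was not tested.

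**Figure D5:**
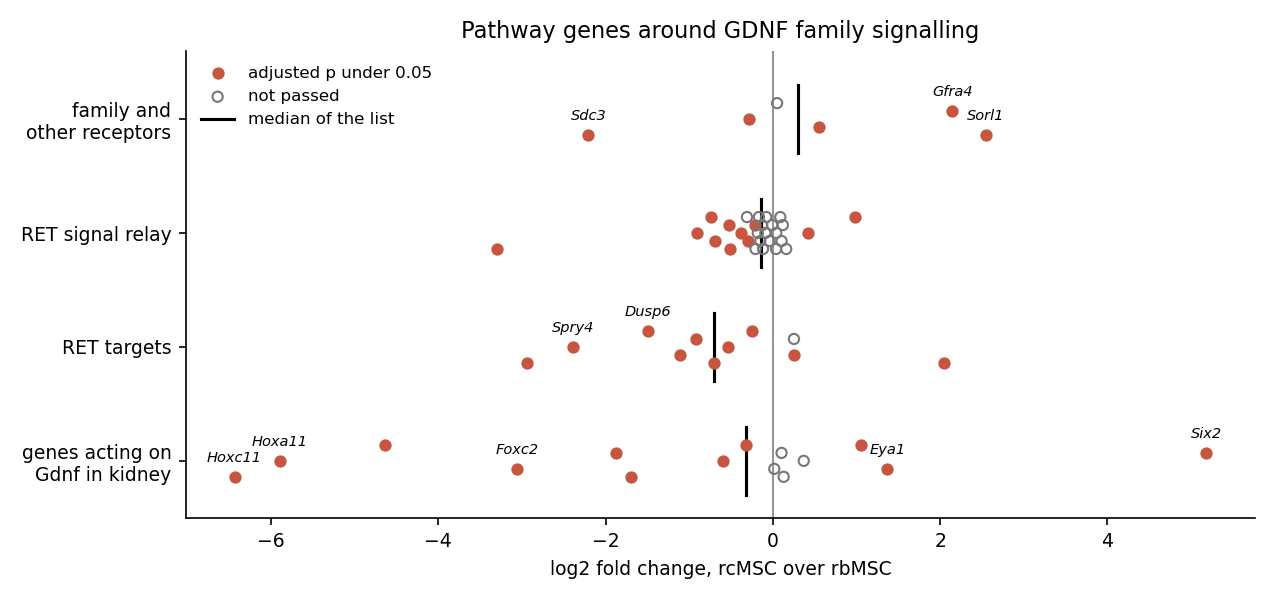
Log2 fold change (rcMSC over rbMSC) of the tested genes of 4 lists around the family, filled where the edgeR adjusted p was under 0.05, with the list's median as a black bar and some named genes labelled. The lists hold called genes on both sides of 0, with 8 lower and 2 higher among RET targets and 9 lower and 2 higher in the RET relay.

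The genes closest to each member in profile were those with the smallest root mean square difference in log2 CPM over the 6 libraries, after centring each gene, out of 11823 candidates. For Artn they were Alx4, a homeobox factor of the face (0.184), Tnfrsf19 (0.303) and Syndig1 (0.367), with log2 fold changes of 4.24, 4.40 and 4.63. For Gdnf they were Depdc7 (0.1), AABR07058934.1 (0.147) and Psmc3ip (0.161). For Gfra2 they were AABR07049329.1 (0.129), Rps27 (0.133) and Rps18l1 (0.135). Gtf2f1 was the closest to the Pspn row, at 0.011. With 6 libraries in 2 groups this likeness mostly reflects the size of the group difference.

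The genes beside Artn on chromosome 5 did not pass the test. Ipo13, 10713 bases away, was at 0.04 on the log2 scale (edgeR adjusted p = 0.767), and St3gal3, 2323 bases away, at 0.06 (edgeR adjusted p = 0.715). Beside Gdnf, Wdr70 was at 0.06 (SE 0.10, edgeR adjusted p = 0.659), and Egflam, 418712 bases away on the other side, rose by 1.15 on the log2 scale. Beside Gfra2, neither Dok2 (0.03) nor Dpm3 (0.50) passed.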

How the data were processed

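RNA of rat MSC was sequenced in 6 libraries as paired reads of 150 nt. Deposited were raw gene counts, which the authors made with featureCounts 2.0.1 from STAR 2.7.9a alignments to mRatBN7.2, per the labels' protocols. Trimmomatic 0.39 and Trim Galore 0.6.7 had trimmed the reads. The submitters' processing notes also list DESeq2 1.20.0. Strand, shared-read settings and the annotation release were not given in the sources used here.

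Libraries were grouped by title. The whole table was tested with edgeR 4.0.16 in R 4.3.3 (quasi-likelihood F test, robust, TMM scaling, filterByExpr) and Benjamini-Hochberg adjustment over 14836 genes, threshold 0.05. SE was taken as the log2 fold change over root F, and 95% intervals from it by the normal quantile. Single values were tested by exact permutation of libraries in scipy 1.17.1. The log2 ratio used a pseudocount of 0.5. On simulated counts edgeR recovered 69.4% of genes changed 1.5-fold, 96.0% at 2-fold and 100% at 4-fold, with 4 false calls among 14677 genes. The simulation gave genes of every level the same dispersion (0.0097) and had no library that stood apart as rcMSC replicate 3 did. These shares therefore do not carry over to the members with few counts.

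All members were named. From each pathway list up to 3 genes per direction with the largest change past the threshold were named, from those whose mean log2 CPM was 0 or more; other list genes were named after their values were seen. The members and lists were chosen with earlier results of these data known. Alternatives were other scalings, filters and tools (DESeq2 1.42.0, limma 3.58.1 voom with quality weights), the replicate block and each library left out. Intervals on counts cover counting error only. Promoters came from RefSeq, GRCr8, which held 7 of the 8 members; Gfra2 is the other. Some list genes that this rule names are not reported here.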

Additional observations from a re-analysis of the deposited data

How the results depend on the processing

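Under the 9 settings that kept all 6 libraries, the 3 members stayed called higher and 0 lower, with log2 fold changes of 4.15 to 4.18 for Artn, 1.53 to 1.66 for Gfra2, 0.67 to 0.89 for Gdnf and 0.08 to 0.12 for the Pspn row. With 1 library left out, 2 to 3 members were higher and 0 lower. Gdnf then ranged from 0.62 to 1.12, Artn from 3.86 to 4.46, Gfra2 from 1.33 to 1.78 and the Pspn row from 0.07 to 0.14. Over all genes, 2542 to 4512 were higher and 2794 to 4558 lower with 1 library left out. The difference in Ret level, 0.0167 CPM per kilobase, ranged from -0.0296 to 0.0491, below 0 without rcMSC replicate 3 and without rbMSC replicate 2 (-0.000389). The row AABR07007068.1 ranged from -0.36 to 0.83, and was at -0.28 with limma voom, which gives rcMSC replicate 3 a weight of 0.222. The log2 ratio of Artn to Gdnf (3.08 to 3.72) kept its sign. So did the summed ligand difference, 8.0 to 8.9 CPM per kilobase without the Pspn row and 8.23 to 9.36 with it. The summed co-receptor difference (0.163 to 0.239 CPM per kilobase) did as well. The RET relay list had 4 higher and 14 lower with limma voom, which called 4402 of all 14836 genes higher and 4387 lower. In that setting the share called was higher in the list than over all genes. Same-numbered libraries did not deviate together (r = -0.084, -0.002 and -0.092), and none correlated best with its own number. With the replicate block, 3046 genes were higher and 3251 lower, Gdnf was at 0.88 (edgeR adjusted p = 0.0208), and the 3 member calls stood. The summed ligand level without the Pspn row, and the alternatives for pathway lists, Gtf2f1, Gfra4 and AABR07007068.1, were chosen after seeing the data. Depth limits Nrtn, Gfra3 and Ret most.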
